A study of Aspergillus niger with 6 samples.

Results

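The step described here is the difference between 24 h and 12 h in a citrate fermentation of Aspergillus niger strain H915-1, measured by RNA sequencing with 1 library per time. Members were all genes of the time course table with at least 1 FPKM (fragments scaled by transcript length and library depth) at 24 h or at 12 h. That gave 8840 of 9953 listed genes, and 1113 genes were under 1 FPKM in both libraries. The labels give the strain, the age of the culture and the air supply for each library, and no other treatment. The groups were 24 h at 3 vvm and 12 h at 3 vvm, with 6, 36 and 48 h at 3 vvm and 48 h at 1.5 vvm as the other libraries, where vvm is the air supplied each minute per volume of culture. All 6 libraries came from the same strain, harvested as pellets. RNA was taken from whole pellets, so fewer hyphae of a kind and less transcript per hypha cannot be told apart.

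Aspergillus niger is a filamentous fungus used in industry to make citric acid. In such a fermentation the mycelium grows as pellets, takes up sugar and secretes citrate, which citrate synthase forms in the mitochondria from oxaloacetate and acetyl-CoA. High sugar, low manganese, an acid medium and strong aeration are known to favour the yield. The files name genes only by identifiers of the authors' own gene models. These matched 0 of 14404 genes in a RefSeq table of Aspergillus niger names, so no pathway or marker list could be applied, and no function is given to any gene below.

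With 1 library per time, no difference here has a replicate check and no p-value was computed for the step. Fragments recovered over the listed genes numbered 5298533 at 24 h and 5199184 at 12 h, and in the other libraries between 5062817 and 6708035. Those of the 10 most abundant genes made up 20.3% of the recovered fragments at 24 h and 21.5% at 12 h. By FPKM, 8 genes were among the 10 highest at both times, and the 10 highest at 24 h differed from 12 h by log2 changes between -0.55 and 0.39. Over the 12 genes in either list the lowest log2 change was -4.41, in a gene that was among the 10 highest at 12 h alone.

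Most genes differed little between 24 and 12 h. Of the 8840 genes, 7986 (90.3%) were within 2-fold and 6845 (77.4%) within 1.5-fold, on the scale log2(FPKM + 1) used throughout, which understates the differences of low genes. In all, 479 genes (5.42%) were at least 2-fold higher at 24 h and 375 genes (4.24%) at least 2-fold lower. The excess of higher genes depended on scaling. With both libraries set to a common median, 428 were higher and 416 lower. With recovered fragments, 1 fragment added in place of 1 FPKM and TMM normalization, 541 were higher and 521 lower. At a common sum of FPKM the excess was larger, with 526 higher and 362 lower. The median log2 change of all genes was 0.05, with quartiles at -0.23 and 0.32. At 4-fold the counts were 110 higher and 75 lower, at 8-fold 28 and 21, and at 16-fold 9 and 8. For the step before it, 12 h against 6 h, 7.66% of 8886 genes were higher and 7.10% lower. For 48 h against 36 h these shares were 2.76% and 2.02% of 8866 genes.

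**Figure D1:**
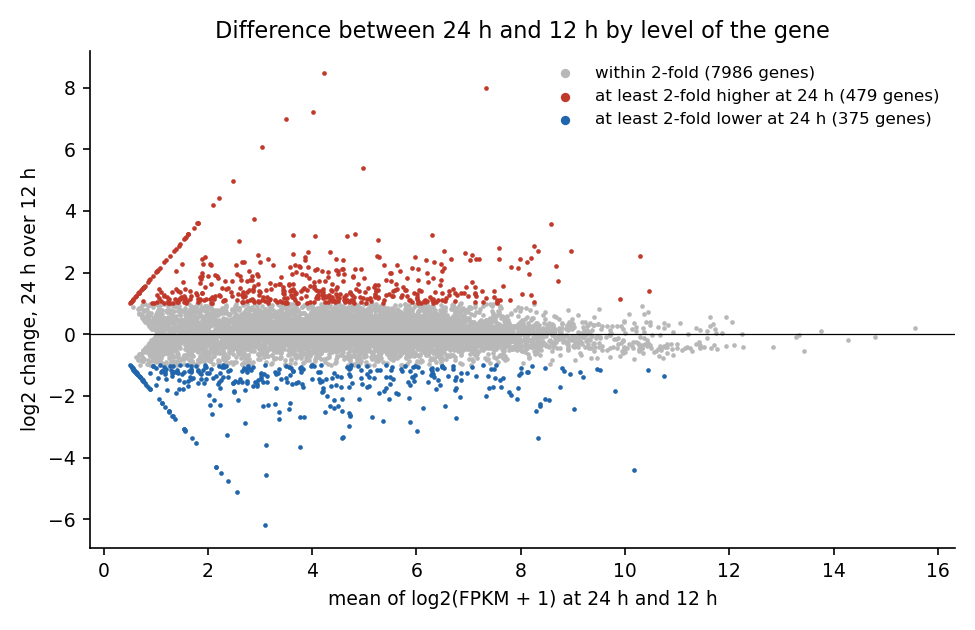
Log2 change of each of 8840 genes at 24 h over 12 h (vertical axis) against its mean log2(FPKM + 1) in both libraries (horizontal axis), with 1 point per gene. Red points are the 479 genes at least 2-fold higher at 24 h, blue points the 375 genes at least 2-fold lower, and the straight diagonal edges at low level are genes with 0 FPKM in 1 of the libraries.

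The higher genes were of moderate level at 24 h. Their median was 26.3 FPKM at 24 h, against 7.10 FPKM at 12 h. The lower genes had a median of 5.03 FPKM at 24 h, against 18.8 FPKM at 12 h. Genes within 2-fold stood at 31.8 FPKM at 24 h and 30.3 FPKM at 12 h. The called genes were also shorter, with a median span in the authors' gene models of 1328 bases for higher and 1207 bases for lower genes, against 1546 bases for genes within 2-fold.

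The share of genes past 2-fold depended on level. Among 2058 genes whose higher library had 1 to 10 FPKM, 144 were higher and 148 lower (7.19%) at 24 h. Among 3407 genes of 10 to 50 FPKM the shares of higher and lower genes were 5.25% and 3.02%, and among 3237 genes of 50 to 1000 FPKM they were 4.63% and 3.58%. At a common median, 130 were higher and 160 lower from 1 to 10 FPKM. With that scaling, 164 were higher and 119 lower from 10 to 50 FPKM, and 128 and 129 from 50 to 1000 FPKM. The 138 genes of at least 1000 FPKM had a median log2 change of -0.32, with quartiles at -0.45 and 0.16, so the typical highly expressed gene was slightly lower at 24 h.

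Many calls at the low end rest on few fragments. In their higher library, 75 of the 479 higher genes and 78 of the 375 lower genes had under 10 fragments. At least 100 fragments there were held by 253 higher and 167 lower genes. Detection in only 1 of the libraries was rare at depth: 23 genes had more than 3 fragments at 24 h and 0 at 12 h, and 15 genes had 0 at 24 h and more than 3 at 12 h. At least 50 fragments against 0 were seen for 2 genes at 24 h and for 1 gene at 12 h. Just past the 2-fold line, 79 higher genes had log2 changes of 1.0 to 1.1, and 110 genes just short of it had 0.9 to 1.0.

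Of the genes with the largest differences, evm.model.unitig_2.1242 was first detected at 24 h. This gene (contig unitig_2, 4146864 to 4147336) was listed at 0 FPKM at 6 and 12 h. It had 353, 53.1 and 582 FPKM over 24, 36 and 48 h, and 4141 FPKM at 48 h and 1.5 vvm. It was thus undetected in the first 2 libraries at 3 vvm and detected in all that followed, with a low value at 36 h. Its 157 fragments at 24 h, against 0 at 12 h, made it at least 51.4-fold higher relative to depth, when a 0 is set to a floor of 3 fragments in the library. That floor leaves out the counting error at 24 h, and the lower end of the 95% counting interval of the ratio was 41.3.

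The gene evm.model.unitig_4.303 (unitig_4, 1012158 to 1012660) had 7.94, 9.22, 2580.0, 41.0 and 264 FPKM over 6, 12, 24, 36 and 48 h and 614 FPKM at 1.5 vvm. Its 24 h value was far above the other 4 at 3 vvm, and it was there among the 138 genes of at least 1000 FPKM. Its fragments numbered 1817 at 24 h and 6 at 12 h, a ratio of 297 relative to depth (95% counting interval 136 to 811). Intervals here are exact binomial intervals of fragment ratios and cover counting error only.

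In the lower direction, evm.model.unitig_6.794 (unitig_6, 2845275 to 2847581) was the most abundant gene to be at least 4-fold lower. It had 234, 5321, 250, 71.0 and 177 FPKM over 6, 12, 24, 36 and 48 h and 445 FPKM at 1.5 vvm. The 12 h library thus stood alone, and at 24 h the gene was back near its level at 6 h. Its 934 fragments at 24 h, against 19026 at 12 h, were 20.8-fold lower relative to depth (19.4 to 22.2).

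The gene evm.model.unitig_1.1355 (unitig_1, 4608281 to 4609696) followed a decline through the whole course. It had 109, 47.2, 2.80, 1.66 and 0 FPKM over 6, 12, 24, 36 and 48 h and 4.27 FPKM at 1.5 vvm. Its 10 fragments at 24 h, against 163 at 12 h, were 16.6-fold lower (8.81 to 35.3). Both lower genes were chosen after values were seen, with at least 100 fragments required in the higher library. The rule without that requirement gave short loci on unitig_23 (10642 to 10878) and unitig_1 (1557092 to 1557271), each with 0 fragments at 24 h and 1 fragment at 12 h, so their FPKM of 72.4 and 33.9 at 12 h stand for a single fragment.

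**Figure D2:**
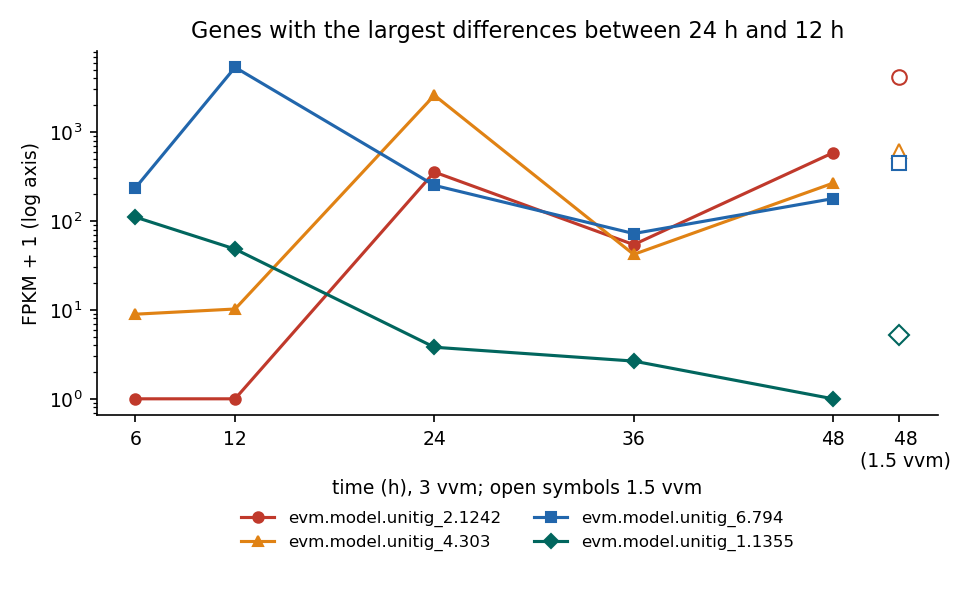
FPKM + 1 on a log axis (vertical) against time in hours (horizontal) for the 2 higher and 2 lower genes with the largest log2 change at 24 h over 12 h among genes of at least 100 fragments, with 1 library per point. Filled symbols are libraries at 3 vvm and open symbols the library at 48 h and 1.5 vvm. The gene evm.model.unitig_4.303 peaks at 24 h (2580.0 FPKM) and evm.model.unitig_6.794 at 12 h (5321 FPKM).

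Among the 138 genes of at least 1000 FPKM in either library, 6 were at least 2-fold higher at 24 h (4.35%) and 8 at least 2-fold lower (5.80%). These shares were close to the 5.42% and 4.24% of all genes, and the group was looked at after values were seen. The gene on contig 1 from 4189517 to 4191007 had 10.01, 514, 2999.5, 2018 and 2832 FPKM over 6, 12, 24, 36 and 48 h. Its fragments were 5.91-fold higher at 24 h (5.69 to 6.13) and stayed high. The gene on unitig_3 from 1053516 to 1054359 had 231, 860.1, 2299.7, 3635 and 3976 FPKM over 6, 12, 24, 36 and 48 h. At 3 vvm its level was above that of the time before at every later time, so the step at 24 h was one of several.

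The abundant lower genes differed in their course. On unitig_5, the gene from 1074203 to 1075038 had 7072, 1027, 99.3, 170 and 43.3 FPKM over 6, 12, 24, 36 and 48 h, and was 9.98-fold lower at 24 h than at 12 h (8.84 to 11.3). The gene on unitig_2 from 2205733 to 2206150 had 8503, 1206, 226, 1879 and 968 FPKM over 6, 12, 24, 36 and 48 h. The unitig_5 gene stayed low after 24 h, while the unitig_2 gene was lowest at 24 h and higher again at 36 h. Others were highest at 12 h. The gene on unitig_6 from 1731151 to 1732921 had 812, 2779, 1077, 771 and 519 FPKM over 6, 12, 24, 36 and 48 h. The gene on unitig_4 from 660820 to 661960 had 959, 1694, 476, 236 and 146 FPKM over 6, 12, 24, 36 and 48 h. Both were lower at each time after 12 h than at the time before.

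How far the step continued or reversed the change from 6 to 12 h was read by sorting each gene by both steps. Of the 8840 genes, 681 were past 2-fold upwards and 541 past 2-fold downwards at 12 h relative to 6 h. Of these 1222 genes, 868 (71.0%) were within 2-fold between 24 and 12 h, 163 (13.3%) moved at least 2-fold further the same way, and 191 (15.6%) moved at least 2-fold back. The filter takes genes below 1 FPKM at 12 h only if they were above it at 24 h. With a filter of 1 FPKM at 6, 12 or 24 h instead, chosen after values were seen, 958 of 1312 genes (73.0%) were within 2-fold, and 12.4% continued and 14.6% reversed. The 12 h library enters both steps with opposite sign, so counting error in it counts as reversal, and these numbers are a description only.

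By direction, 105 genes were higher at 12 h and higher again at 24 h, and 58 were lower and lower again. Another 112 were higher at 12 h and then lower at 24 h, and 79 were lower and then higher. Of the 479 genes higher at 24 h, 295 (61.6%) had been within 2-fold between 12 and 6 h, and of the 375 lower genes 205 (54.7%) had. Of the genes within 2-fold between 24 and 12 h, 7118 (89.1%) had also been within 2-fold between 12 and 6 h. Most genes in each direction had thus not passed 2-fold in the step before, but this was less common than among genes within 2-fold. At 24 h, 70 of the 295 higher genes and 66 of the 205 lower genes were within 2-fold of their 6 h level.

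The balance of continued against reversed genes turned with depth. Genes with under 10 fragments in each of the 6, 12 and 24 h libraries made up 34 of the 112 genes higher then lower and 33 of the 79 lower then higher, against 6 of the 105 higher in both steps and 1 of the 58 lower in both. Among genes with at least 100 fragments in the highest of these libraries, 123 of 735 continued (16.7%) and 69 reversed (9.39%). Below 100 fragments, 40 of 487 continued (8.21%) and 122 reversed (25.1%). With a mean of at least 10 FPKM over the 3 libraries instead, 129 continued and 82 reversed. The 79 genes lower then higher also had short spans, with a median of 711 bases, against 1578 bases for genes within 2-fold in both steps. The fragment and mean FPKM requirements use the same 3 libraries that define the classes. The highest class median was 59.0 FPKM at 24 h (higher in both) and 102 FPKM at 6 h (lower in both). It was 13.8 FPKM at 12 h (higher then lower) and 11.1 FPKM at 24 h (lower then higher). The parts of counting error and of this shared use of libraries in the balance were not tested.

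**Figure D3:**
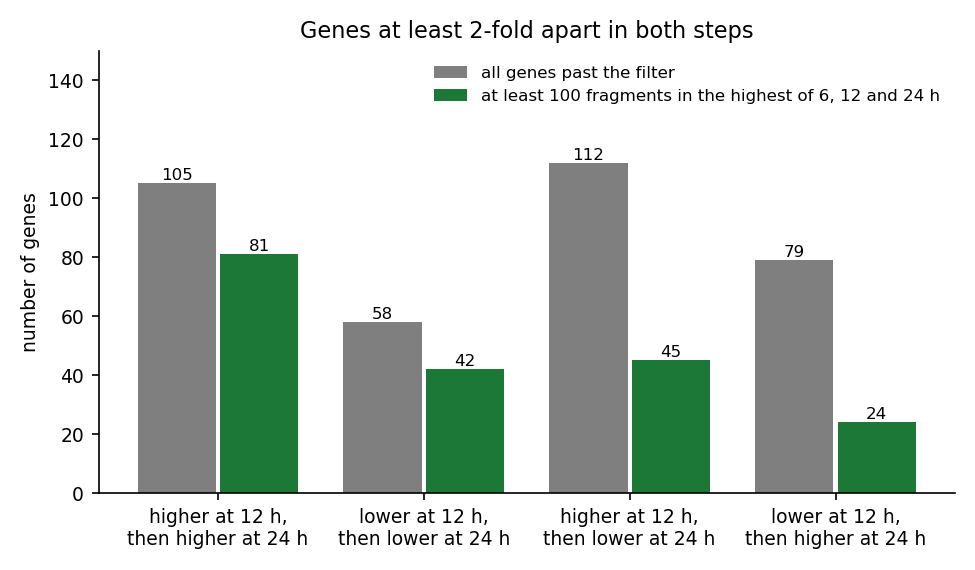
Number of genes (vertical axis) at least 2-fold apart both at 12 h over 6 h and at 24 h over 12 h, for each pair of directions (horizontal axis), over all genes past the filter (grey) and over those with at least 100 fragments in the highest of the 6, 12 and 24 h libraries (green). The classes that reverse shrink most under the depth requirement, to 45 of 112 and 24 of 79 genes, while the classes that continue keep 81 of 105 and 42 of 58. The requirement uses the same libraries that define the classes.

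The share of the first change still present at 24 h was read without a second threshold. Both changes compared here start from the 6 h library, so counting error in that library counts as a kept change, and these values too are a description. For the 681 genes higher at 12 h, the median log2 change was 1.47 at 12 h over 6 h and 1.51 at 24 h over 6 h. At 24 h the median gene kept 102% of its first log2 change; 348 genes (51.1%) had gone beyond it, 194 kept 50% to 100%, 79 kept less, and 60 (8.81%) were at or below their level at 6 h. Of the 631 genes lower at 12 h than at 6 h, 90 were below 1 FPKM at both 12 and 24 h and so were not members. Over all 631, the median log2 change was -1.44 at 12 h over 6 h and -1.37 at 24 h over 6 h. At 24 h the median gene kept 96.3% of its decrease, 269 genes (42.6%) had gone further down, and 35 (5.55%) were at or above their level at 6 h. Over the 541 members alone the median gene kept 93.3%, a value that leans towards return because the filter used the 24 h level.

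Examples of each course were taken as the gene with the largest smaller step, among genes of at least 100 fragments, a requirement added after values were seen. Higher in both steps was the gene on unitig_2 from 741716 to 742556, with 15.9, 195, 1285, 751 and 837 FPKM over 6, 12, 24, 36 and 48 h. It reached its highest value at 3 vvm at 24 h and was 6.68-fold higher there than at 12 h by fragments (6.15 to 7.27). Lower in both steps was the gene on unitig_5 from 3473625 to 3474527, with 2240.0, 108, 14.6, 18.4 and 11.8 FPKM over 6, 12, 24, 36 and 48 h. It was 7.32-fold lower at 24 h than at 12 h (5.40 to 10.1) and stayed low.

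Reversal in the upward direction was shown by the gene on unitig_4 from 1814548 to 1815962. It had 737, 109.9, 1320.3, 836 and 643 FPKM over 6, 12, 24, 36 and 48 h and 1252 FPKM at 1.5 vvm. The 12 h library was the low one, with 7408 fragments at 24 h against 612 at 12 h, an 11.9-fold ratio (10.9 to 12.9). The example of a gene higher and then lower was evm.model.unitig_6.794, described above. Without the fragment requirement the examples of both reversed courses were loci with at most 1 fragment in each of the 6, 12 and 24 h libraries.

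Libraries outside the step showed how lasting it was. Each gene's level at 36 and 48 h was placed on the 24 h or the 12 h side of the midpoint between its 24 and 12 h values on the log2 scale. Of the 479 genes higher at 24 h, 363 (75.8%) were nearer to 24 h at 36 h, and 383 (80.0%) at 48 h. Of the 375 lower genes, 221 (58.9%) were so at 36 h, and 244 (65.1%) in the 48 h library. Over all 8840 genes, most of which hardly differed, the shares were 59.0% and 62.4%. The share was larger for the higher than for the lower genes, whose share at 36 h was near that of all genes. With at least 100 fragments in the higher of the 24 and 12 h libraries, the shares at 36 h were 79.4% of 253 higher genes, 64.7% of 167 lower genes and 59.4% of all 5681 genes. The difference between higher and lower genes was not tested.

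At 6 h, 371 of the 479 higher genes (77.5%) and 241 of the 375 lower genes (64.3%) were on the 12 h side, against 62.0% of all genes. At 1.5 vvm and 48 h, 421 of 479 higher genes (87.9%) were on the 24 h side, but so were only 111 of 370 listed lower genes (30.0%), against 52.8% of all genes. Low genes stood higher in that library: 158 genes of both tables were below 1 FPKM there, against 1210 to 1329 in the libraries at 3 vvm. The part of this in the result at 1.5 vvm was not tested.

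Comparisons that share no library with the step gave the same order. Between 36 and 6 h, 290 of 464 genes that were higher at 24 h were also past 2-fold upwards here (62.5%) and 35 were lower, where the shares of all genes were 17.4% higher and 11.4% lower. Of 350 genes that were lower at 24 h, 163 were past 2-fold downwards in this comparison (46.6%) and 72 were higher (20.6%). Their median log2 changes were 1.52 for the higher and -0.82 for the lower genes, beside 0.09 for all genes. Between 48 and 36 h, 58 of 459 genes of the higher group were higher (12.6%) and 16 lower (3.49%), and of 325 genes of the lower group 20 were higher (6.15%) and 37 lower (11.4%). Beside 2.76% and 2.02% of all genes, these shares were larger for both groups in each direction. Neither group was matched to all genes for level or fragments, and the part of this in these shares was not tested.

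**Figure D4:**
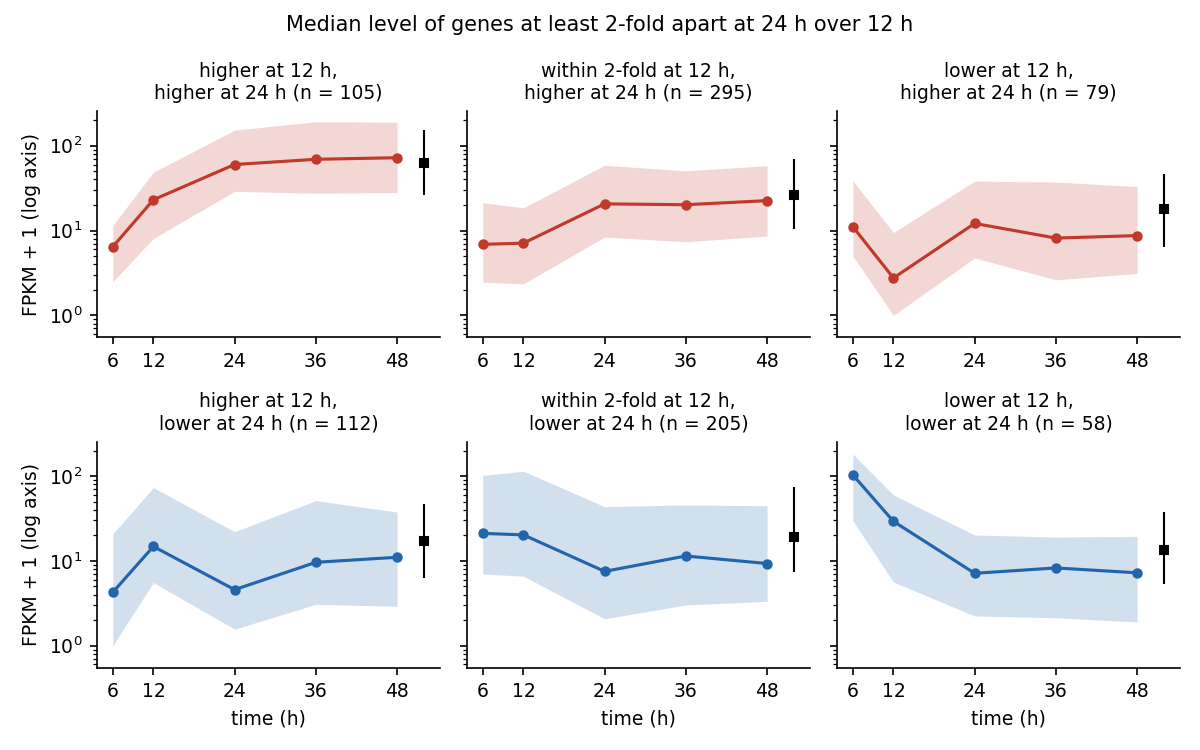
Median FPKM + 1 on a log axis (vertical) against time in hours at 3 vvm (horizontal) for the genes at least 2-fold higher (red, top row) or lower (blue, bottom row) at 24 h over 12 h, split by their change at 12 h over 6 h. Bands and bars span the quartiles over genes, and the black square to the right is the library at 48 h and 1.5 vvm. The 105 genes higher in both steps stand at 68.2 and 71.2 FPKM over 36 and 48 h, while the 112 genes higher and then lower stand at 3.58 FPKM at 24 h and 8.61 FPKM at 36 h.

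The courses of the classes differed after 24 h. The 105 genes higher in both steps had a median of 5.43, 22.1, 59.0, 68.2 and 71.2 FPKM over 6, 12, 24, 36 and 48 h. The 295 genes within 2-fold at 12 h and then higher at 24 h had 5.88, 6.10, 19.6, 19.1 and 21.5 FPKM at these times. Both classes held their 24 h level to 48 h. The 58 genes lower in both steps had 102, 28.2, 6.14, 7.25 and 6.23 FPKM and stayed low. The 205 genes within 2-fold at 12 h and then lower at 24 h had 20.1, 19.3, 6.51, 10.4 and 8.30 FPKM, a partial return. The 112 genes higher and then lower had 3.26, 13.8, 3.58, 8.61 and 10.02 FPKM, so that the median at 24 h was near that at 6 h and below all later ones. These classes were chosen on the 24 h library, and the part of that choice in the returns after it was not tested.

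Genes that stood apart at 24 h from the libraries before and after it were counted in both directions. Of 8982 genes, 118 were at least 2-fold below both 12 h and 36 h, and 85 at least 2-fold above both. These were 31.5% of the genes lower and 17.7% of the genes higher at 24 h. Both groups were chosen on the 24 h value, and the part of that choice in these shares was not tested. By the same count, 79 of 9015 genes were below and 112 above both adjacent libraries at 12 h. At 36 h, 55 of 8966 genes were below and 78 above. The 24 h library was thus the one of the 3 with more dips than peaks. With at least 100 fragments in the highest of each 3 libraries, it had 54 dips and 41 peaks among 5927 genes. The counts were 24 and 45 among 5910 genes at 12 h, and 20 and 30 among 6022 genes at 36 h. At a common median of the 5 libraries the 24 h library had 123 dips and 86 peaks, and at a common sum 111 and 99.

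The time of highest level split each group. Of the 479 higher genes, 193 were highest in the 24 h library, 90 in that of 36 h, 164 in that of 48 h and 32 in that of 6 h, among the 5 libraries at 3 vvm. Of the 375 lower genes, 156 were highest at 12 h and 142 at 6 h, and 167 were lowest at 24 h, 66 at 36 h and 78 at 48 h. By the choice of genes, no higher gene could be highest at 12 h and no lower gene lowest there. That choice also favours extremes at 24 h, so these splits are a description only.

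Genes past 2-fold also lay side by side on the contigs. Runs of at least 4 consecutive members on a contig, all at least 2-fold apart in one direction, numbered 3 higher and 2 lower. Fungal genomes are known for clusters in which genes of one secondary metabolite or one nutrient pathway lie together, but the files give these genes no function. How many such runs gene order alone would give was not tested.

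The longest run was higher at 24 h and held 6 genes on unitig_0 from 2191559 to 2219983. Their median was 3.08, 7.46, 32.3, 34.2 and 27.1 FPKM over 6, 12, 24, 36 and 48 h and 34.6 FPKM at 1.5 vvm, and their log2 changes at 24 h lay between 1.06 and 2.44. Of the 6 genes, 4 had already passed 2-fold upwards between 6 and 12 h, so the run continued an earlier increase. Its most abundant gene (2205180 to 2207577) had 271 FPKM at 24 h against 117 FPKM at 12 h. The member with the fewest fragments had 28 at 24 h and 5 at 12 h.

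The longest lower run held 5 genes on unitig_3 from 2332711 to 2350867. Their median was 14.1, 18.7, 3.03, 39.8 and 25.4 FPKM over 6, 12, 24, 36 and 48 h and 22.9 FPKM at 1.5 vvm. All 5 genes were lower at 24 h than in the libraries on either side. The gene from 2337535 to 2338629 had 76.1, 6.43 and 124 FPKM over 12, 24 and 36 h, with 22 fragments at 24 h against 251 at 12 h. The neighbour from 2339979 to 2342573 had 18.7, 3.03 and 39.8 FPKM at these times, with 32 fragments at 24 h against 191 at 12 h.

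The other lower run held 4 genes on contig 1 from 2936339 to 2955262, with a median of 17.9, 37.3, 10.3, 6.93 and 10.9 FPKM over 6, 12, 24, 36 and 48 h. In it 3 of the 4 genes had passed 2-fold upwards between 6 and 12 h, and these were highest at 12 h. The gene from 2939416 to 2940741 was lower in both steps, with 24.6, 3.44 and 0.905 FPKM over 6, 12 and 24 h. It rests on 15 fragments at 12 h and 4 at 24 h. The span held 5 listed genes, since genes under the filter were passed over in runs. With a pseudocount of 5 FPKM neither lower run remained.

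On unitig_3 from 187661 to 193784, 4 neighbouring genes were higher at 24 h, with a median of 12.0, 14.8, 41.4, 63.3 and 96.1 FPKM over 6, 12, 24, 36 and 48 h. The run divided after 24 h. The 2 genes in its middle went on to 173 and 149 FPKM at 48 h, against 28.2 and 35.1 FPKM at 24 h, and the outer 2 stood at 28.1 and 43.5 FPKM at 48 h, against 47.6 and 65.4 FPKM at 24 h. One of the outer genes rests on 17 fragments at 24 h and 6 at 12 h.

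The last run held 4 genes on unitig_6 from 43603 to 56039, beginning 43.6 kb from the start of the contig, with a median of 3.64, 3.03, 10.9, 10.6 and 11.6 FPKM over 6, 12, 24, 36 and 48 h. At 1.5 vvm the first 2 of these genes had 261 and 120 FPKM and the last 2 had 13.1 and 1.83 FPKM. The first 2 genes were thus much higher at low air than in any library at 3 vvm, and the last 2 were not. Low genes stood higher in the 1.5 vvm library, as given above, and the part of this in the difference was not tested. The span of this run also held 5 listed genes.

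**Figure D5:**
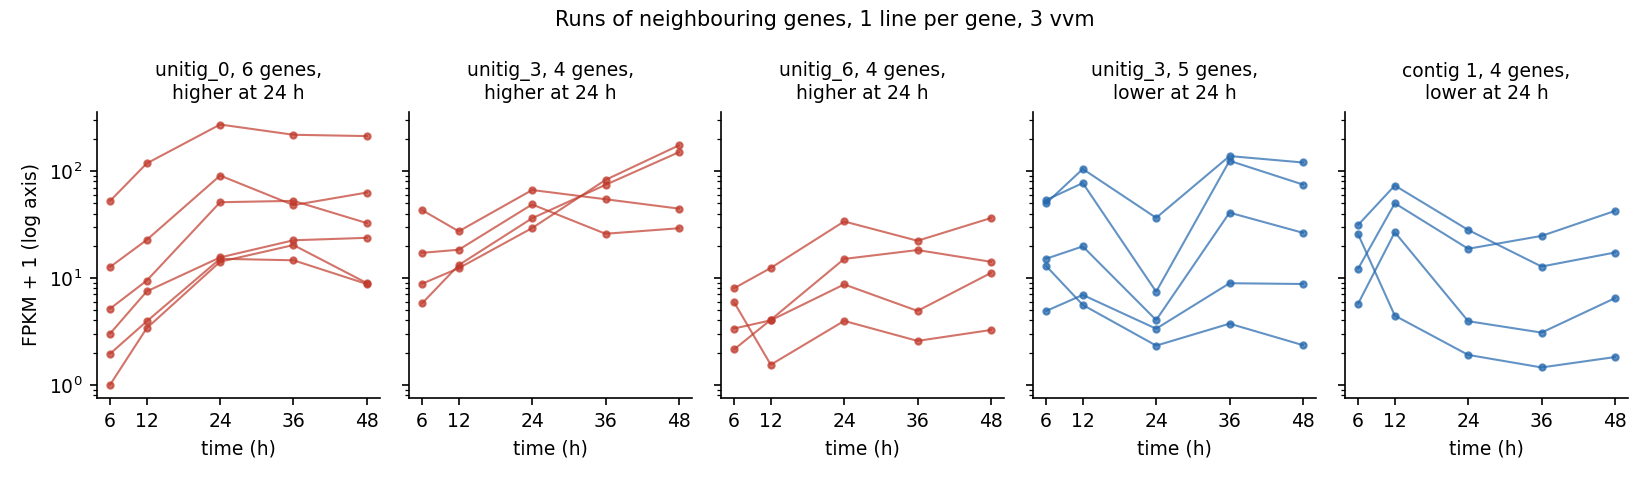
FPKM + 1 on a log axis (vertical) against time in hours at 3 vvm (horizontal) for each gene of the 5 runs, with 1 line per gene and 1 library per point. Runs higher at 24 h are red and runs lower at 24 h are blue. The 5 genes on unitig_3 that were lower at 24 h lie below their 12 and 36 h values there.

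The members past 2-fold were spread over all 8 long contigs. The share of higher genes lay between 4.01% on unitig_1 and 6.90% on unitig_3. The share of lower genes lay between 2.48% on unitig_0 and 5.84% on unitig_5. On unitig_0, 90 of 1655 genes were higher and 41 lower, while on unitig_5 45 of 925 were higher and 54 lower. Contig 1 also had slightly more lower than higher genes, 62 against 59 of 1066.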

How the data were processed

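RNA of 6 libraries, 1 per group, was sequenced after TruSeq preparation, per the labels' protocols. Tools named in the submitters' processing notes are Cufflinks 2.1.1 and TopHat2 2.0.9. Genome build, annotation, strand setting and treatment of reads shared by near-identical genes: not given in the sources used here. FPKM as deposited are the authors' own, per the file headers. The deposited columns headed as counts are a signal that the authors scaled to 1 total per table. Divided by the step between its low values, each gave whole fragments (tolerance 0.1) for at least 99.9% of values in each library, and these served for depth and intervals. Values at 1.5 vvm come from a second table and were joined by locus. That table held 4 value columns that matched no label and were not used.

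Log2 changes used a pseudocount of 1 FPKM, a filter of 1 FPKM in either library and a threshold of 2-fold. Alternatives were a pseudocount of 0.1 or 5 FPKM, no filter or 10 FPKM, a common sum or median, 4-fold, and requirements on fragments, with Python 3.11.15 and scipy 1.17.1. As a count test, edgeR 4.0.16 in R 4.3.3 fitted a trend with log2 time by its quasi-likelihood test, over genes of at least 15 fragments. The 2-fold calls and the trend fit were run on simulated data, with known changes planted in genes of at least 100 fragments. For the 2-fold calls the draws held counting error alone, so they cannot show how many calls would recur in a replicate. Contig positions are the authors', counted from 1. The rule for named genes took the 2 higher and 2 lower genes whose log2 change was largest, at 10 FPKM or more in the higher library. For each pair of directions it took the gene with the largest smaller step, and up to 4 runs per direction. The members, rules and lists were chosen with earlier results of these data known. A limit of 3 fragments was used for a count of 0.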

Additional observations from a re-analysis of the deposited data

How the results depend on the processing

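No paired analysis was possible because each group holds 1 library and the labels give no replicate numbers. With a pseudocount of 5 FPKM, 284 genes were higher and 193 lower at 24 h. The 4 classes past 2-fold in both steps then held 54 (higher in both), 49 (higher then lower), 29 (lower then higher) and 31 genes (lower in both), and no lower run of at least 4 genes remained (0). Of the genes higher at 24 h under that pseudocount, 211 were on the 24 h side at 36 h and 234 at 48 h, and of the lower genes 127 and 143. With a pseudocount of 0.1 FPKM, 146 genes were lower then higher. A filter of 10 FPKM left 227 lower genes. At 4-fold, 110 genes were higher and 75 lower. With at least 100 fragments in the higher library there were 253 higher and 167 lower genes. Reversed classes held 50 (higher then lower) and 32 genes (lower then higher) with a mean of at least 10 FPKM over the 3 libraries, and 45 and 24 with at least 100 fragments in the highest of them. With FPKM set to a common sum, 5 higher runs of at least 4 genes were found. Of runs of at least 5 genes there were 1 higher and 1 lower. The other 30 recomputed counts stayed within 1.5 times of those reported. Single loci (44, the named, abundant and neighbouring genes) were recomputed with a pseudocount of 5 FPKM and at a common sum of FPKM alone, and 0 reversed. Of the 44, 9 moved beyond their counting interval with that pseudocount, which left 6 within 2-fold, and 1 moved at a common sum. Where a locus had 0 fragments in 1 library, its interval was open at 1 end, so a move could hardly be counted. The log2 change of evm.model.unitig_2.1242 was 6.16 with the pseudocount of 5 FPKM, against 8.47 as reported, and was not counted as moved. The gene evm.model.unitig_1.1355 had a log2 change of -2.74 with that pseudocount, against -3.66 as reported. Fewer low genes pass a larger pseudocount, filter or fragment requirement by construction, and the cause of the other shifts was not tested. Of the genes past 2-fold, 56.1% were higher at 24 h with values as deposited, 50.7% at a common median and 50.9% with recovered fragments and TMM normalization. The share was 59.2% at a common sum of FPKM and 59.6% with a filter of 10 FPKM. With at least 100 fragments in the higher library it was 60.2%.

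As a count test added after the data were seen, edgeR's quasi-likelihood test of a trend with log2 time over the 5 libraries at 3 vvm called 874 genes rising and 858 falling among 8987, with a threshold of 0.05 on the Benjamini-Hochberg adjusted p. Its spread is the deviation from the fitted line, not one between replicates. Of 438 tested genes higher at 24 h, 185 rose with time and 1 fell, and of 323 lower genes 114 fell and 0 rose. Those trends include the 24 and 12 h libraries themselves, so the match in direction was partly set by the choice of genes and is no check of the step. Leaving out a library was not possible for the step, since each time has only 1.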
